A study of Mus musculus with 6 samples.

Results

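The 32 genes described here are a group of DNA damage sensing and repair genes, read on microarrays of sorted bone marrow hematopoietic stem cells. They were chosen by name, from the damage kinases through the pathways that mend breaks, crosslinks and damaged bases. The choice was made with earlier results of these data known. The array groups its probes into transcript clusters, each meant to read 1 gene, and 30 of the 32 had a cluster that carried their symbol alone. All 30 passed the filter on dim clusters, and they are 30 of the 39543 clusters tested. Xrcc2 and Parp1 were not analysed here: no cluster carried the name of Xrcc2 alone, and the cluster with Parp1 also carried names of microRNAs. The arrays fall into 2 groups, 3 arrays of Cdk19 knockout mice and 3 of wild-type mice, aged 6 to 8 weeks in both. Cdk19 encodes a cyclin-dependent kinase that binds to Mediator, the large co-activator through which transcription factors reach the polymerase. In both groups marrow was flushed from tibia, femur and ilium, enriched for cells without lineage markers, stained and sorted for stem cells, and no treatment or damaging agent is named in the labels. The labels do not give the number of animals behind an array, their sex, the markers of the gate, the deleted part of the gene or the cells in which it was deleted. They number the arrays of each genotype as biological replicates. The p-values below therefore set the difference between genotypes against the spread among the 3 arrays within each.

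A DNA break is sensed by protein complexes that sit on the ends and activate the kinases ATM and ATR, which then switch on the checkpoint kinases CHK2 and CHK1 and stabilise p53. The cell repairs the break either by joining the ends directly or by copying an intact sister chromatid, which is possible only after replication. Resting stem cells of the marrow rely largely on end joining, and loss of several repair genes, those of the Fanconi anaemia pathway among them, is known to exhaust stem cells in mice. Many repair genes that serve replication forks are transcribed at the start of S phase under E2F transcription factors.

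Cdk19 itself stood at 11.49, 11.42 and 11.51 in the knockout arrays, against 12.49, 12.45 and 12.38 in the wild-type arrays, on the deposited log2 scale on which all levels below are given. The groups did not overlap and the difference was -0.97 (SE 0.05, limma with Benjamini-Hochberg adjusted p = 3.225e-04), a 1.95-fold lower signal. The correlation of arrays over tested clusters ran from 0.9967 to 0.998 within a genotype and from 0.9941 to 0.995 between genotypes. Of the stem cell markers, Kit was at 14.06, 14.03 and 14.09 in knockout and 14.54, 14.53 and 14.53 in wild type, and was called lower (-0.47, limma adjusted p = 0.00133). Cd34 was at 15.83, 15.79 and 15.83 in knockout and 15.95, 15.92 and 16.04 in wild type. Hlf was at 9.14, 9.11 and 9.16 in knockout and 9.65, 9.68 and 9.75 in wild type. It was called lower too (-0.56, limma adjusted p = 0.00282). Of the 10 stem cell markers tested, 8 had negative differences and 2 positive ones. Slamf1 and Procr, named here after their values were seen, overlapped between the groups. Slamf1 was at 5.60, 5.70 and 5.65 in knockout and 5.79, 5.66 and 5.89 in wild type, and Procr at 7.22, 7.45 and 7.43 in knockout and 7.33, 7.23 and 7.30 in wild type. Ly6a was not analysed here.

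Of the 30 repair genes measured, 6 were lower in knockout cells at an adjusted p under 0.05 and 0 were higher. The 6 were Chek2, Mre11a, Rad50, Xrcc6, Palb2 and Xpa, and their differences ran from -0.73 to -0.28, which is between 1.66-fold and 1.22-fold lower. Over all tested clusters 4.84% were called lower and 2.96% higher, and over the protein-coding ones 5.94% and 4.78%. Over the 9869 protein-coding clusters whose mean level lay in the range of these genes, 6.88% were called lower and 4.62% higher, against 20% of the repair genes lower and none higher. At an unadjusted p under 0.05, 10 were lower and 0 higher. The share of all tested clusters at that unadjusted limit was not counted, so these counts are description only. The median difference of the 30 was -0.08, beside 0.00 over all tested clusters and -0.02 over those 9869. It was -0.04 without knockout replicate 2 and -0.05 without wild-type replicate 2. All 3 knockout arrays lay below all 3 wild-type arrays for 10 of the 30 genes and above them for 1, and the groups overlapped for 19. The knockout arrays lay wholly below for 14.9% and wholly above for 11.6% of all tested clusters (22.1% and 15.9% of the protein-coding ones), and for 26.3% and 15.2% of the 9869, so the number of genes lying wholly below was closer to its background than the number called. In bulk RNA, fewer cells of a type and less RNA per cell cannot be told apart.

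**Figure D1:**
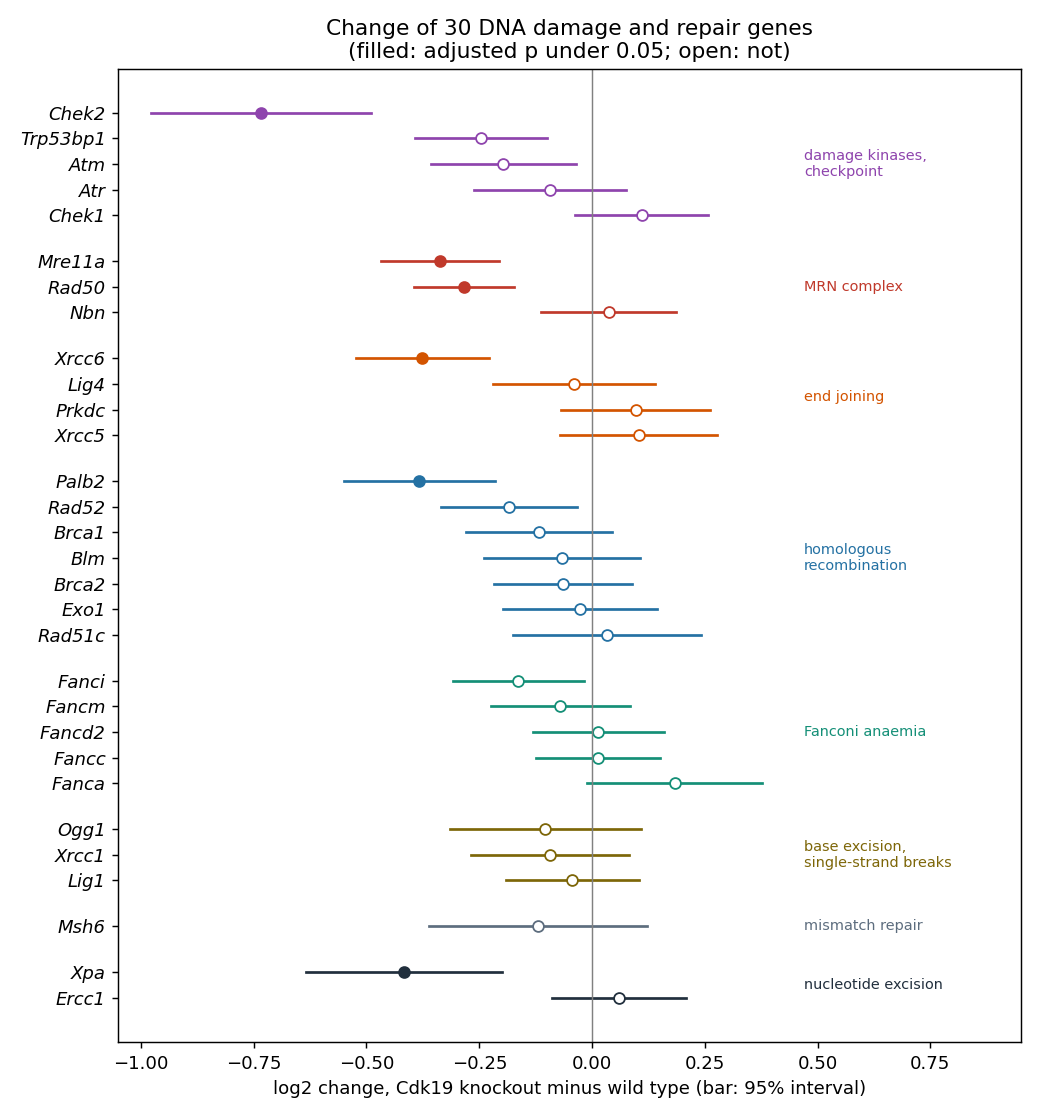
Difference in log2 level, knockout minus wild type, for each of the 30 repair genes measured, grouped by role. Points are limma estimates, bars their 95% intervals, and filled points mark the 6 genes called at an adjusted p under 0.05, all of them left of 0, with Chek2 farthest at -0.73.

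The damage kinases held the gene that differed most. Chek2 encodes CHK2, the kinase that ATM activates after a break and that passes the signal on to p53. Its level was 6.94, 6.74 and 6.97 in the knockout arrays, against 7.45, 7.73 and 7.67 in the wild-type arrays. Every knockout array lay below every wild-type array. The means were 6.88 ± 0.13 in knockout and 7.62 ± 0.15 in wild type (SD, n = 3 each), a difference of -0.73 (SE 0.10, 95% interval -0.98 to -0.49, limma adjusted p = 0.00886). Chek2 was also called under each of the 13 other settings tried, with differences between -0.82 and -0.66.

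The checkpoint kinase of the other branch was not called. Chek1, the CHK1 kinase that ATR activates at stalled forks, was at 9.08, 9.10 and 9.13 in knockout and 9.07, 8.99 and 8.92 in wild type. These groups did not overlap, with knockout above, and the difference was 0.11 (95% interval -0.04 to 0.26, limma adjusted p = 0.374). Within an array, Chek2 minus Chek1 was -2.14, -2.36 and -2.16 in knockout, against -1.62, -1.26 and -1.25 in wild type, a difference of -0.84 between the genotypes on this measure. This pair and the subunit pairs below were chosen after their values were seen, so the differences between them are descriptions with no test.

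The upstream kinases and the adaptor 53BP1 had smaller differences. Atm, the kinase that responds to double-strand breaks, was at 9.62, 9.47 and 9.48 in knockout and 9.66, 9.78 and 9.72 in wild type. Every knockout array was below the wild-type ones, and the difference was -0.20 (95% interval -0.36 to -0.04, limma adjusted p = 0.149). For Atr, the kinase that responds to single-stranded DNA, the levels of 8.47, 8.30 and 8.42 in knockout overlapped those of 8.47, 8.56 and 8.44 in wild type, with a difference of -0.09 (limma adjusted p = 0.525). Trp53bp1 encodes 53BP1, which protects broken ends from resection and so favours end joining. Its level was 8.14, 8.03 and 8.06 in knockout, against 8.28, 8.32 and 8.37 in wild type. The groups did not overlap, and the difference of -0.25 (95% interval -0.39 to -0.10) came with a limma adjusted p of 0.0629, just short of the threshold. With the dimmest 60% of clusters left out it was called, at an adjusted p of 0.0403.

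**Figure D2:**
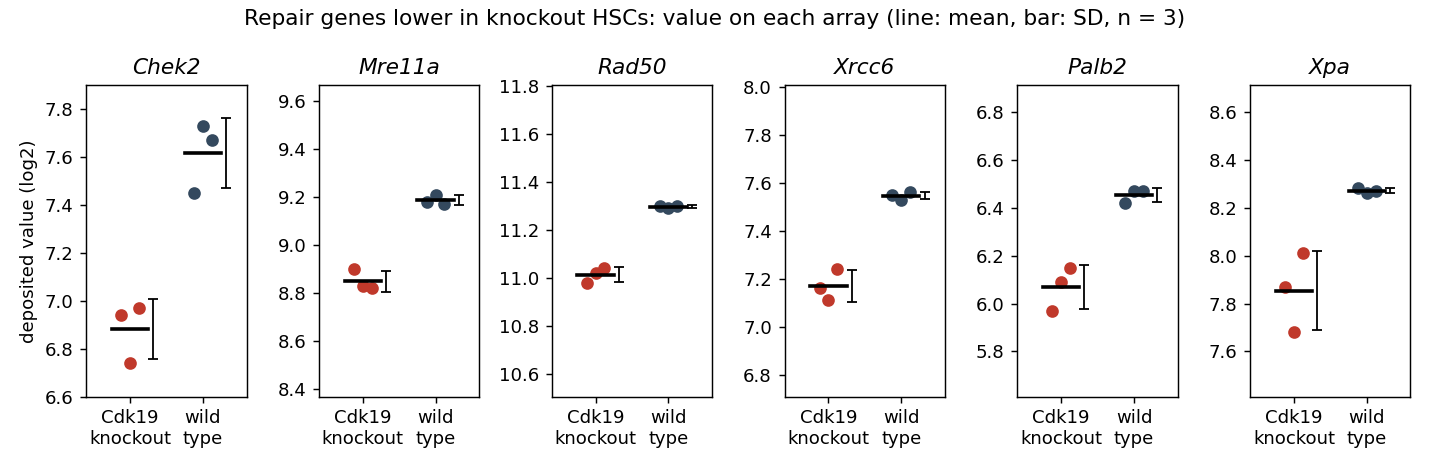
Deposited log2 level on each array for the 6 repair genes called lower, with the 3 knockout arrays left of the 3 wild-type arrays in each panel, a line at the group mean and a bar for the SD. Within each panel the knockout points all lie below the wild-type points; levels of different panels are from different probes and are not comparable.

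The sequence just upstream of the start of a gene is where motifs bound by E2F and other factors are usually looked for. RefSeq start sites on GRCm38.p6 were matched by symbol for 25 of the 30 genes, 5 of the 6 called ones among them. In the 250 bases before the start, 8 letters of an E2F site (TTTCCCGC, TTTGGCGC, TTTCGCGC or TTTGCCGC, on either strand) were found for 3 of the 25 genes, Chek2, Xrcc6 and Brca2, which is 12% against 2.16% of all 27018 genes. A CCAAT box (CCAAT on either strand), the letters bound by NF-Y, was found for 13 of 25, or 52%, against 37.5% of all genes. The letters of a CHR element, a site of late cell cycle genes (TTTGAA or TTCGAA on either strand), were found for Atr alone, 4% against 19.6% of all genes. No match of one motif overlapped one of another. A match is a description of these letters and no evidence of binding. The stretches shown were chosen after the values were seen and are the upstream sequences of the called genes Chek2, Mre11a and Xrcc6, and of Brca2, which holds the same E2F letters but was not called. Each runs 5′ to 3′ on the strand of the gene and ends at the base before its start. The first 3 are cut short where they reach the span of the neighbouring gene, Hscb for Chek2, Ankrd49 for Mre11a and Desi1 for Xrcc6. Capitals mark the matches, with ATTGG as the reverse complement of CCAAT and GCGGGAAA as that of TTTCCCGC.
Chek2: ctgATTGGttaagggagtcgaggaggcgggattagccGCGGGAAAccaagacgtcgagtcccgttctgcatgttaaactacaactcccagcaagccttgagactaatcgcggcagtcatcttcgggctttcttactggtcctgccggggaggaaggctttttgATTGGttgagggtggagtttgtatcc
Mre11a: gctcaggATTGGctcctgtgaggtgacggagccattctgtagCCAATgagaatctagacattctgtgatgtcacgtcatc
Xrcc6: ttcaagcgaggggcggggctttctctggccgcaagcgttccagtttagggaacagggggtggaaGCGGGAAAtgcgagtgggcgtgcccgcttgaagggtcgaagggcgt
Brca2: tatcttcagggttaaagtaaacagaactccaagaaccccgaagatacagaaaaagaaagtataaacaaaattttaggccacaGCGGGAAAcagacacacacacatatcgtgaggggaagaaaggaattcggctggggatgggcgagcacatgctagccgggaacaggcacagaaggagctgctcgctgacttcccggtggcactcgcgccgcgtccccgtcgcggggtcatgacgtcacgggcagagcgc
The stretch for Chek2 is chr5:110839794-110839982 (+), with an E2F match 152 to 145 bases and CCAAT matches 186 to 182 and 26 to 22 bases before its start. That for Mre11a is chr9:14784574-14784653 (+), with CCAAT matches 73 to 69 and 38 to 34 bases before its start and no E2F match. The stretch for Xrcc6 is chr15:82016259-82016368 (+), with an E2F match 46 to 39 bases before the start, and that for Brca2 is chr5:150522371-150522620 (+), with one 168 to 161 bases before it. Of genes with the E2F letters, 2 were among the 5 called and 1 among the 20 not called, and CCAAT was found in 3 of the 5 and 10 of the 20. In the wider list of repair genes described further on, the E2F letters were found in 0 of 11 called lower and 6 of 76 not called, the CHR letters in 4 of 11 and 10 of 76, and CCAAT in 4 of 11 and 37 of 76.

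The MRN complex binds broken ends, tethers them and recruits ATM, and 2 of its 3 subunits were lower in knockout cells. Mre11a, the nuclease subunit, was at 8.90, 8.83 and 8.82 in knockout, against 9.18, 9.21 and 9.17 in wild type. The means were 8.85 ± 0.04 and 9.19 ± 0.02 (SD, n = 3 each) and did not overlap in any array, with a difference of -0.34 (SE 0.05, limma adjusted p = 0.0150). Rad50, the ATPase subunit that spans the ends, was at 10.98, 11.02 and 11.04 in knockout, against 11.30, 11.29 and 11.30 in wild type. That is a difference of -0.28 (SE 0.05, limma adjusted p = 0.0155), the smallest of the 6 called, between groups that did not overlap. Nbn, the subunit that binds ATM, had 8.84, 8.68 and 8.76 in knockout and 8.70, 8.73 and 8.74 in wild type. Its groups overlapped, with a difference of 0.04 (95% interval -0.11 to 0.19, limma adjusted p = 0.804). Within an array, Mre11a minus Nbn was 0.06, 0.15 and 0.06 in knockout and 0.48, 0.48 and 0.43 in wild type. Mre11a minus Rad50, by contrast, overlapped between the groups, at -2.08, -2.19 and -2.22 in knockout and -2.12, -2.08 and -2.13 in wild type.

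In end joining, the ring of Ku70 and Ku80 slides onto the break and brings in the kinase DNA-PK, after which ligase IV seals the ends. Xrcc6, which encodes Ku70, was at 7.16, 7.11 and 7.24 in knockout, against 7.55, 7.53 and 7.56 in wild type. The groups were far apart for their spread, with means of 7.17 ± 0.07 and 7.55 ± 0.02 (SD, n = 3 each) and a difference of -0.38 (SE 0.06, limma adjusted p = 0.0155). Its partner Xrcc5, which encodes Ku80, was at 8.17, 8.05 and 8.27 in knockout and 8.08, 8.03 and 8.07 in wild type, an overlap with a difference of 0.10 (95% interval -0.07 to 0.28, limma adjusted p = 0.492). Xrcc6 minus Xrcc5 within an array was -1.01, -0.94 and -1.03 in knockout, against -0.53, -0.50 and -0.51 in wild type, a difference of -0.48 on this measure. Prkdc, the catalytic subunit of DNA-PK, had 9.48, 9.27 and 9.34 in knockout and 9.26, 9.28 and 9.26 in wild type, a difference of 0.10 (limma adjusted p = 0.498). Lig4, the ligase, was at 4.37, 4.60 and 4.47 in knockout and 4.52, 4.51 and 4.53 in wild type, close to the limit of 4.09 under which clusters were left out as dim.

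Homologous recombination had 7 genes measured and 1 called. Palb2 encodes the protein that joins BRCA1 to BRCA2 at resected ends. Its level was 5.97, 6.09 and 6.15 in knockout, against 6.42, 6.47 and 6.47 in wild type. The groups did not overlap, and the difference was -0.38 (SE 0.07, limma adjusted p = 0.0229), 1.30-fold lower. Neither of its partners was called. Brca1 was at 8.32, 8.16 and 8.23 in knockout and 8.30, 8.35 and 8.41 in wild type, with a difference of -0.12 (95% interval -0.28 to 0.05, limma adjusted p = 0.394). Brca2 was at 9.03, 8.93 and 8.89 in knockout and 8.97, 9.07 and 9.0 in wild type, with a difference of -0.06 (95% interval -0.22 to 0.09, limma adjusted p = 0.650). Both overlapped between the groups. Within an array, Palb2 minus Brca1 differed by -0.27 and Palb2 minus Brca2 by -0.32 between the genotypes, with no overlap on either measure.

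The remaining recombination genes were not called either. Rad52, which anneals single strands, was at 5.76, 5.83 and 5.83 in knockout, against 5.95, 5.97 and 6.05 in wild type. Every knockout array was below, and the difference of -0.18 (95% interval -0.33 to -0.03) had a limma adjusted p of 0.153. Rad51c, a recombination mediator, overlapped, with 6.28, 6.31 and 6.42 in knockout and 6.33, 6.42 and 6.16 in wild type. Blm, the helicase that dissolves crossed strands, had 9.20, 9.19 and 9.36 in knockout and 9.33, 9.38 and 9.24 in wild type, also overlapping. Exo1, the exonuclease that resects ends, had 8.46, 8.26 and 8.33 in knockout and 8.33, 8.41 and 8.39 in wild type, with a difference of -0.03 (limma adjusted p = 0.885).

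None of the 5 Fanconi anaemia genes, which unhook crosslinks between the strands of DNA, was called by limma, and 1 had an unadjusted p under 0.05. That one was Fanci, which with FANCD2 forms the pair that is marked with ubiquitin at a crosslink, with 6.97, 6.90 and 6.97 in knockout, against 7.10, 7.16 and 7.07 in wild type. Its groups did not overlap, and the difference was -0.16 (95% interval -0.31 to -0.02, limma adjusted p = 0.182). Fancd2, its partner, had 8.73, 8.70 and 8.83 in knockout and 8.74, 8.71 and 8.77 in wild type, with a difference of 0.01. Fanca and Fancc belong to the complex that places the ubiquitin. Fanca was at 8.16, 7.93 and 8.04 in knockout and 7.78, 7.93 and 7.87 in wild type. Here the knockout arrays were level with or above the wild-type ones, with a difference of 0.18 (95% interval -0.01 to 0.38, limma adjusted p = 0.257), the most positive of the 30. Fancc was nearly level, at 5.74, 5.70 and 5.75 in knockout and 5.70, 5.72 and 5.73 in wild type. Fancm, the translocase that anchors the complex to DNA, overlapped at 7.58, 7.48 and 7.59 in knockout and 7.56, 7.66 and 7.64 in wild type. The median difference of these 5 genes was 0.01, and its sign changed without wild-type replicate 2, without knockout replicate 3 and with the arrays set to a common median.

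The genes for damaged bases and bulky lesions held 1 call in 6. Xpa, the scaffold that checks the lesion in nucleotide excision repair, was at 7.87, 7.68 and 8.01 in knockout, against 8.28, 8.26 and 8.27 in wild type. All knockout arrays were below, and they spread more widely, with means of 7.85 ± 0.17 in knockout and 8.27 ± 0.01 in wild type (SD, n = 3 each). The difference was -0.42 (SE 0.09, limma adjusted p = 0.0412), and with no filter on dim clusters the adjusted p was 0.0612. Ercc1, part of the nuclease that cuts beside the lesion, was at 6.33, 6.31 and 6.29 in knockout and 6.29, 6.28 and 6.18 in wild type, a difference of 0.06 (limma adjusted p = 0.659). Msh6, which recognises mismatched bases, had 10.13, 9.89 and 10.14 in knockout and 10.04, 10.32 and 10.16 in wild type. In base excision and single-strand break repair, Ogg1, which removes oxidised guanine, had 7.60, 7.43 and 7.68 in knockout and 7.61, 7.63 and 7.78 in wild type. Xrcc1, the scaffold of that pathway, had 7.49, 7.27 and 7.38 in knockout and 7.45, 7.48 and 7.49 in wild type. Lig1, the ligase of replication and of base repair, had 10.51, 10.39 and 10.50 in knockout and 10.44, 10.56 and 10.53 in wild type. These 4 genes overlapped between the groups, with differences from -0.12 to -0.04. Over the 24 genes not called, the 95% intervals together ran from -0.39 to 0.38.

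From general knowledge, 9 of the 30 were set apart by hand as E2F-driven S-phase genes, with earlier results of these data known. Of the 3 genes with the E2F letters above, Brca2 is among the 9, and Chek2 and Xrcc6 are not. None of the 9 was called by limma and 1 had an unadjusted p under 0.05, with a median difference of -0.06 and intervals between -0.36 and 0.26. Of the 21 others, 6 were lower, with a median of -0.09. Cell cycle genes outside repair were read beside them. Of 29 measured G1/S genes, which act in the onset of DNA replication, 1 was higher and 1 lower, with a median of 0.00 (-0.03 with a common median of the arrays) and a mean level of 9.54 to 9.65 in knockout and 9.57 to 9.60 in wild type. Orc1, of the origin recognition complex, differed by 0.47 and Ccnd2, which encodes cyclin D2, by -0.44 (limma adjusted p = 0.0268 and 0.00490). Mcm4 at 0.21 and Prim1 at -0.21 came next and were not called (limma adjusted p = 0.0925 and 0.130). Of 31 measured G2/M genes, which act in mitosis, 18 were lower and 0 higher, with a median of -0.32 and a mean level of 9.20 to 9.28 in knockout and 9.52 to 9.58 in wild type. Kif11, a spindle motor, differed by -0.34 and Prc1, a midzone protein, by -0.45 (limma adjusted p = 0.0068 and 0.0075), and no G2/M gene was called higher (0 also at an unadjusted p under 0.05). The part of these lists in the repair calls was not tested.

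**Figure D3:**
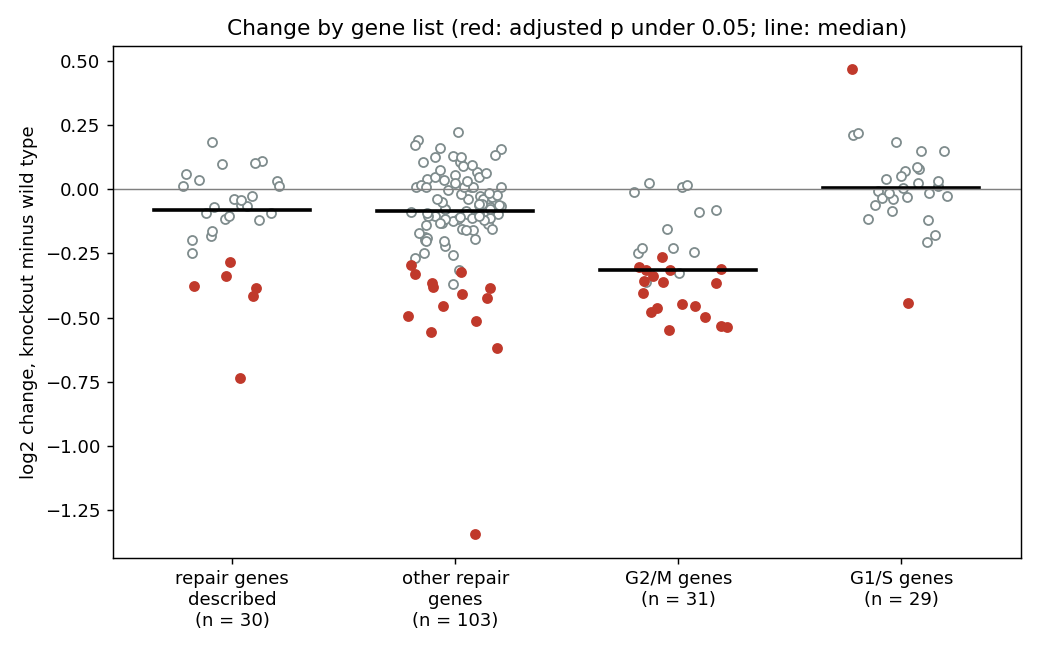
Difference in log2 level, knockout minus wild type, for each measured gene of the repair genes described here, the other repair genes and the G2/M and G1/S lists. Each point is 1 gene, red points were called at an adjusted p under 0.05, and the line is the median of the list. The G2/M genes have a median of -0.32, against -0.08 for both repair lists and 0.00 for the G1/S genes.

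Markers of other blood cells also differed between the same groups. The mean level of a list takes in members that were too dim to test. Of 7 tested lymphoid-primed markers, 5 were lower, and the mean level of the 8 with a cluster was 7.37 to 7.39 in knockout and 7.97 to 8.03 in wild type. Flt3, a receptor of lymphoid-primed progenitors, differed by -0.89 on the log2 scale, Il7r by -1.08, Notch1 by -0.91 and Dntt by -1.34. Of 7 tested B cell markers, 4 were lower, and the mean level of the 8 with a cluster was 5.57 to 5.59 in knockout and 5.94 to 6.00 in wild type. Cd79a, Ebf1 and Ighm were among the 4, at -0.61, -0.83 and -0.99. Of 7 tested megakaryocyte markers, 4 were higher: F2r at 1.15, Selp at 0.94, and Itga2b and Gp9 at 0.56 each. The mean level of the 9 with a cluster was 6.39 to 6.46 in knockout and 6.01 to 6.02 in wild type. Granulocyte markers had 2 of 12 higher, Ctsg among them at 0.54. Their mean level was 8.50 to 8.63 in knockout and 8.38 to 8.49 in wild type. Erythroid markers had 1 of 5 lower, Car1 at -1.04, and the mean level of the 6 with a cluster was 6.41 to 6.49 in knockout and 6.67 to 6.68 in wild type. T cell markers had 0 of 3 called by limma in either direction, with 1 at an unadjusted p under 0.05. Cd3e, Cd8a and Cd2 lay under the limit for dim clusters. Stem cell markers had 2 of 10 lower, with a mean level of 8.70 to 8.72 in knockout and 8.86 to 8.91 in wild type. The part of these differences in the repair genes' levels was not tested.

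A wider list of 119 other repair and checkpoint genes was read in the same fit. Of the 103 that were tested, 14 were lower, or 13.6%, against 4.84% of all tested clusters and 5.94% of protein-coding ones. By limma 0 were higher, with 28 lower and 4 higher at an unadjusted p under 0.05. No share of all tested clusters was counted at that unadjusted limit, nor one matched to the levels of these genes. The median difference was -0.08, with 73 negative and 30 positive. The checkpoint genes called were Rad9a and Rad1, both subunits of the ring that loads at damage and activates ATR, at -0.45 and -0.33 (limma adjusted p = 0.0124 and 0.0321). Hus1, the remaining subunit, differed by -0.10 (limma adjusted p = 0.527) and is named here after its values were seen. Rad9a was at 8.24, 8.08 and 8.22 in knockout, against 8.63, 8.58 and 8.69 in wild type, with no overlap.

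Bypass of lesions and direct reversal of damage, taken as 1 role, had the most calls among the other roles, with 4 of 12 genes. Polh, whose polymerase copies past ultraviolet damage, was at 7.73, 7.77 and 7.91 in knockout, against 8.26, 8.21 and 8.21 in wild type, a difference of -0.42 (limma adjusted p = 0.0150). Poli, a related bypass polymerase, was at 8.24, 8.20 and 8.20 in knockout, against 8.83, 8.65 and 8.83 in wild type, a difference of -0.56 (limma adjusted p = 0.00656). In both the groups were wholly apart. Polk, a polymerase of the same family, came close at -0.37 (limma adjusted p = 0.0513) and is named here after its values were seen. Hltf and Shprh, both ligases that mark PCNA for bypass, differed by -0.37 and -0.41 (limma adjusted p = 0.0110 and 0.0131). The median of the 12 was -0.07. All 4 called genes act in bypass. The 12 also take in Mgmt, Alkbh2 and Alkbh3, which reverse damage directly. These differed by -0.04, 0.03 and 0.09, were not called and are named here after their values were seen.

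In recombination, 2 of 16 were lower. Gen1, a nuclease that cuts crossed strands, was at 6.54, 6.41 and 6.44 in knockout, against 7.05, 7.12 and 7.07 in wild type, a difference of -0.62 (limma adjusted p = 0.00329). Rad51b, a recombination mediator, differed by -0.38 (limma adjusted p = 0.0165). In nucleotide excision repair 1 of 17 was lower. It was Xpc, which finds the lesion before Xpa arrives, at 8.65, 8.58 and 8.66 in knockout, against 9.16, 9.15 and 9.06 in wild type, a difference of -0.49 (limma adjusted p = 0.00560). Both Xpc and Gen1 were separated by more than their spread, and the partner of Xpc, Rad23b, had a difference of 0.22 (limma adjusted p = 0.0555) and is named after its values were seen. Base repair had 3 of 16 lower: Mbd4, a glycosylase for mispaired thymine, at -0.51, Neil3, a glycosylase for oxidised bases, at -0.30, and Aplf, a factor of strand break repair, at -0.32 (limma adjusted p = 0.0399, 0.0274 and 0.0245). In the Fanconi pathway 1 of 13 was lower, Wdr48, a partner of the enzyme that removes ubiquitin from FANCD2, at -0.39 (limma adjusted p = 0.00721). None of the 4 mismatch repair genes was called by limma, with 2 at an unadjusted p under 0.05. Mlh3, the nearest, was at -0.32 (limma adjusted p = 0.0643).

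In end joining 1 of 7 was lower, and it is a lymphoid marker as much as a repair gene. Dntt encodes terminal transferase, which adds bases at the joints of rearranging antigen receptor genes. It was at 11.35, 11.37 and 11.48 in knockout, against 12.77, 12.68 and 12.78 in wild type, a difference of -1.34 (limma adjusted p = 1.701e-04). Without it, 13 of 102 other repair genes were lower. The calls of Chek2, Dntt, Gen1, Xpc and Poli held under each of the 13 other settings, and that of Wdr48 under 12.

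**Figure D4:**
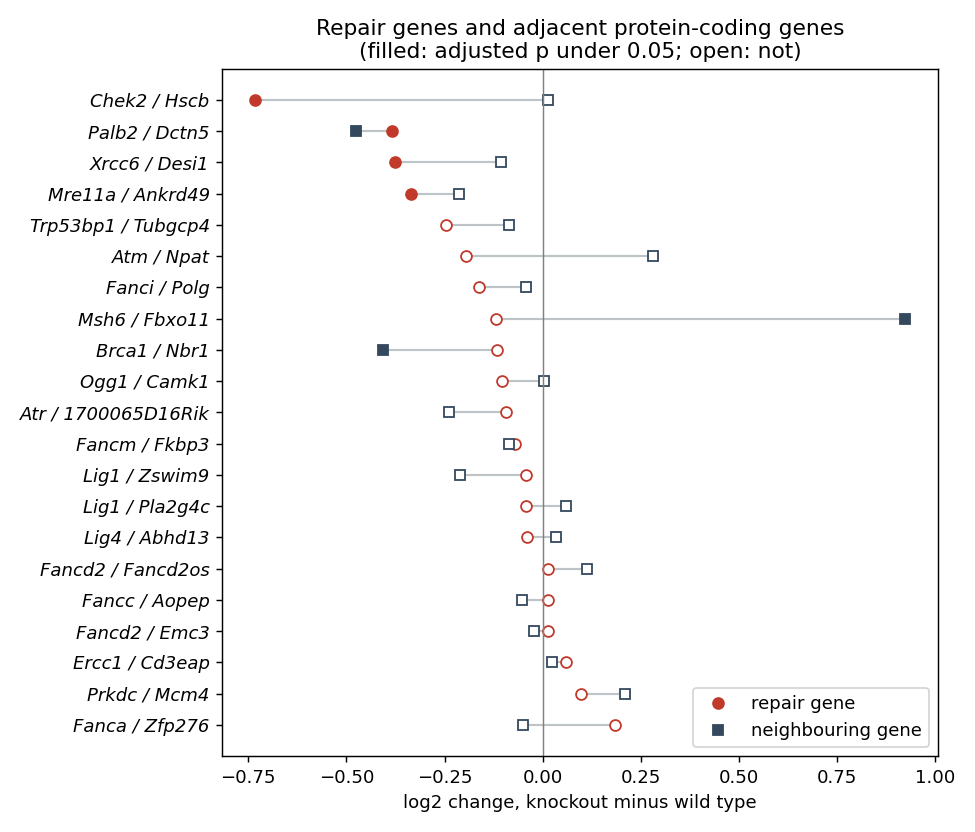
Difference in log2 level, knockout minus wild type, of repair genes with a tested protein-coding neighbour beside that of the neighbour, 21 neighbours in all, within 1000 bases on the chromosome. The neighbour of Palb2, Dctn5, is lower as well, at -0.48, while that of Chek2, Hscb, is at 0.01.

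Several of these genes overlap another protein-coding gene or lie within 1000 bases of one on either side. These neighbours were read too, chosen after the values were seen, and the orientation of each pair was not taken into account. Of 21 tested neighbours within 1000 bases, 2 were lower and 1 higher, beside 5.94% lower and 4.78% higher over all protein-coding tested clusters. With so few neighbours these counts are description only. Hscb, beside Chek2, was at 6.73, 6.45 and 6.58 in knockout and 6.60, 6.58 and 6.54 in wild type, an overlap with a difference of 0.01 (limma adjusted p = 0.956). Ankrd49, beside Mre11a, and Desi1, beside Xrcc6, were not called, at -0.21 and -0.11 (limma adjusted p = 0.0761 and 0.419). Dctn5, beside Palb2, was at 8.50, 8.41 and 8.64 in knockout, against 9.02, 8.98 and 8.98 in wild type, and its difference of -0.48 (limma adjusted p = 0.0126) was called together with that of Palb2. The other neighbours called lay beside genes that were not. Nbr1, beside Brca1, differed by -0.41 and Fbxo11, beside Msh6, by 0.92 (limma adjusted p = 0.00798 and 2.49e-04).

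The calls other than Chek2 were lost when any 1 of the wild-type arrays was left out. The wild-type SD was under 0.03 for 5 of the 6 called genes, and over the 30 genes the median SD was 0.08 in knockout and 0.05 in wild type. Without wild-type replicate 1, 2 or 3, Chek2 was the 1 gene called in each case. Calls fell over all 39543 tested clusters too, from 1914 lower to 1041, 867 and 764 in turn. Without knockout replicate 1 or 2, 4 calls were left, and without knockout replicate 3 there were 6. The differences themselves moved little, for example between -0.37 and -0.32 for Mre11a and between -0.41 and -0.34 for Xrcc6. Fitted and adjusted over protein-coding clusters alone, 10 of the 30 were lower and 0 higher, against 13.6% and 9.25% of those clusters. Atm, Trp53bp1, Rad52 and Fanci were added, at adjusted p of 0.0435, 0.00997, 0.0303 and 0.0442.

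**Figure D5:**
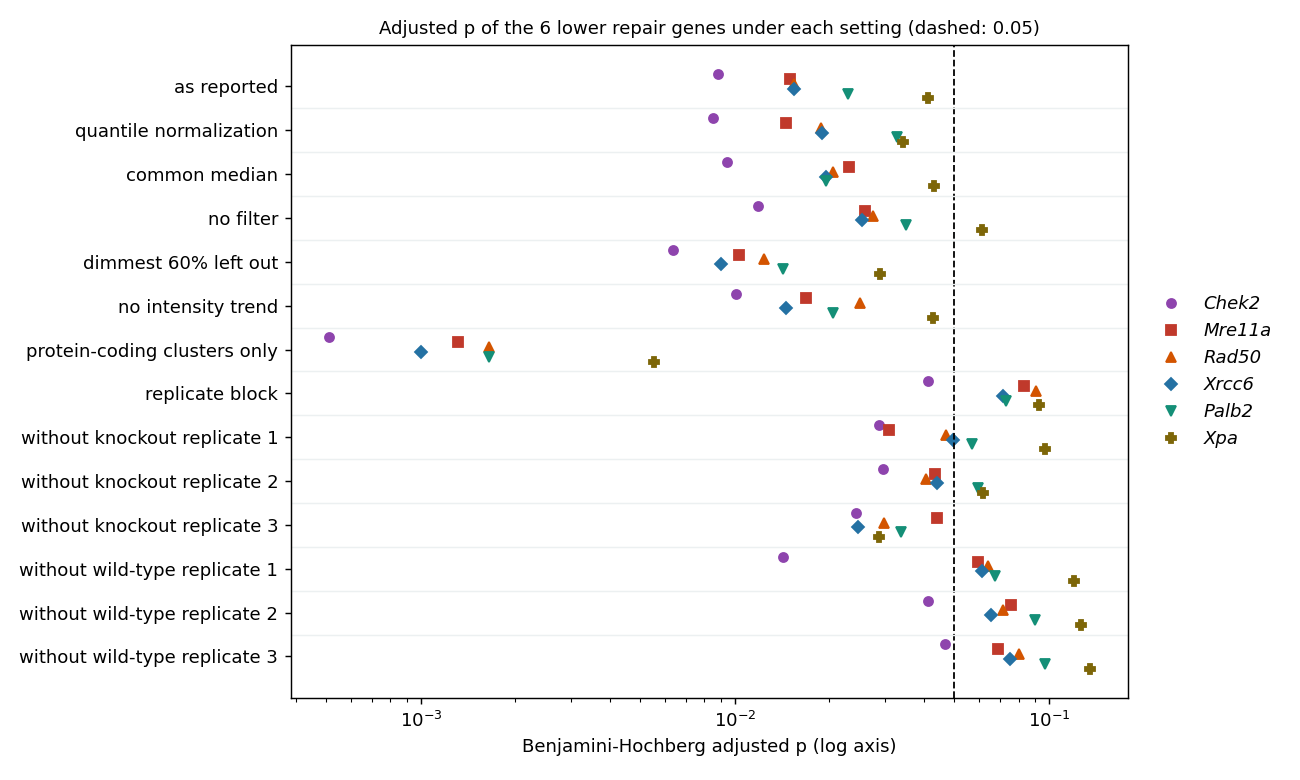
Benjamini-Hochberg adjusted p, on a log axis, of the 6 repair genes called lower, as reported and under each other setting tried, with a dashed line at 0.05. Chek2 stays left of the line in every row, while the other 5 genes cross it with the replicate block and without any 1 of the wild-type arrays.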

How the data were processed

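Total RNA of sorted bone marrow stem cells was measured on 6 arrays, 3 of Cdk19 knockout and 3 of wild-type mice. The authors deposited 1 value per array for 65956 transcript clusters, read here as log2 expression because the values run from 2.04 to 19.93 with 2 decimals. No source used here states the log base, the background correction or the normalization, so every fold size depends on that reading. MAS5 is named per the submitters' processing notes, with no version or role. The array medians lay between 4.40 and 4.48, and with no depth to count, the number of arrays limits the precision.

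Clusters were named from the platform annotation: 30604 carried 1 gene symbol, 2146 several and 33206 none. The dimmest 40% of clusters by mean over the 6 arrays (under 4.09) were left out, which kept 39543. Knockout was compared with wild type by limma 3.58.1 in R 4.3.3 (lmFit, eBayes with a trend, genotype only), with Benjamini-Hochberg adjustment over all tested clusters and calls at an adjusted p under 0.05. Each gene named had 1 cluster. On simulated data with 200 changed clusters among the 39543, the fit recovered 32 of 100 changes of 0.5 and 74 of 100 changes of 1, with 6 false calls. The data themselves had 1914 clusters called lower and 1172 higher. The simulated clusters were drawn from all tested ones, whose median SD was 0.11 in knockout and 0.09 in wild type. For the repair genes it was 0.08 and 0.05, so these shares do not give the recovery for the repair genes.

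The repair genes and the lists were chosen with earlier results of these data known, so no p is given for a list. The text names every repair gene of the group, Cdk19, each called gene of the other repair roles (the gene with the smallest p where a role had none), the 2 cell cycle genes of smallest p in each direction and list, and a few markers; exceptions are marked. Of the 119 other repair genes, 105 had a cluster, 3 of them under an older symbol, 2 (Smug1 and Neil2) were too dim, and 14 were not analysed here. Promoter letters came from RefSeq sequences of GRCm38.p6. Same-numbered arrays of the genotypes deviated from their group means with correlations of -0.138, -0.097 and 0.025, so the numbers were not taken to pair the arrays. Alternatives were quantile normalization, a common median, other filters, no variance trend, a replicate block, each array left out, and protein-coding clusters alone, the last added after the data were seen.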

Additional observations from a re-analysis of the deposited data

How the results depend on the processing

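No called result reversed under any alternative tried; the medians of the end joining, Fanconi and G1/S genes, near 0, changed sign as given below. Of 389 values of single repair genes across the 13 alternatives, 359 kept their side of the threshold, 25 lost the call and 5 gained it. Genes near 0 that were not called could change sign within the 359. Exo1 went from -0.03 to 0.0028 with quantile normalization, and Fancc and Fancd2 each from 0.01 to -0.02 with a common median. The number of the 30 repair genes called lower, 6 in the report, was 10 over protein-coding clusters alone, 1 with a replicate block and 1 to 6 with 1 array left out, and the number called higher was 0 throughout. Over all 39543 tested clusters, 1914 were lower in the report, 1083 with the block and 764 to 1508 with 1 array left out. Over the 12729 protein-coding clusters alone it was 1730. Of the called genes, Mre11a, Rad50 and Xrcc6 held in 9 of 13 alternatives, Palb2 in 7 and Xpa in 6. With the replicate block, Chek2 kept an adjusted p of 0.0413, and Mre11a, Rad50, Xrcc6, Palb2 and Xpa had 0.0834, 0.0913, 0.0713, 0.0729 and 0.0931. Same-numbered arrays share only a number here, so a call lost with the block is no sign of a weaker difference. The 14 other repair genes called lower became 26 over protein-coding clusters, 5 with the block and 5 to 10 with 1 array left out, and the number called higher, 0, became 1 with quantile normalization, with the dimmest 60% left out and over protein-coding clusters. The 18 G2/M genes called lower became 7 with the block and 5 to 12 with 1 array left out. The 1 G1/S gene called higher became 2 with quantile normalization, 0 with a common median, 3 over protein-coding clusters, 0 with the block and 0 to 1 with 1 array left out, and the 1 called lower became 3 over protein-coding clusters. The repair genes with all knockout arrays above, 1 in the report, became 5 with quantile normalization, 0 with a common median and 1 to 6 with 1 array left out. With a common median, the median difference was -0.31 for the MRN genes, -0.0017 for end joining and -0.11 for the other repair genes, and the median of the 29 G1/S genes was -0.0267. End joining had 0.10 with the dimmest 60% left out. With 1 array left out the medians ran from -0.1108 to -0.0383 for the 30 repair genes, -0.0383 to 0.0333 for the G1/S genes, -0.30 to -0.27 for MRN, 0.0075 to 0.0292 for end joining, -0.025 to 0.0283 for Fanconi genes and -0.095 to -0.0633 for the other repair genes. The causes were not tested. The mean over all clusters of a gene was not run, since each gene had 1 cluster. With 3 arrays a genotype, 32 of 100 simulated differences of 0.5 were recovered, on clusters drawn from all those tested and not from the repair genes.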
